A study of Drosophila melanogaster with 39 samples.

Results

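Neuropeptides are small signalling proteins that neurons cut from larger precursors, pack into dense-core vesicles and release to act on G protein-coupled receptors at a distance. The 10 Drosophila genes described here, Pdf, NPF, sNPF, Tk, Dh44, Dh31, Crz, Lk, SIFa and Dsk, encode peptides studied for their parts in sleep and waking, feeding, aggression, stress and fluid balance. They were chosen by name: a row of the count table was a member if its gene symbol was 1 of these 10. All 10 were found among the 17559 genes of the table, and all 10 passed the filter on low counts that left 10272 genes to be tested.

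Each library was made from the polyadenylated RNA of 1 head of 1 adult male Drosophila melanogaster, and every fly had the genotype Cantonized w1118, so no group carried a transgene. Sample titles gave 5 groups: naive Mid (7 heads), naive High (7), shocked High (6 analysed of 8 labelled), shocked Mid (8) and shocked Low (9), where the last word is a class of place preference. The sources used here do not give the bounds of the classes. The labels give 5 min of shock at 60 V, an assay of behaviour at 1.5 h and freezing at 2.5 h, in the same words for naive and shocked samples. Only the titles separate them, and 1 batch date is given for all. There was no naive Low group. If the classes were scored in that assay, they were set after the shock, and a difference between shocked and naive heads of 1 class cannot be told apart from a difference in which flies fell into that class.

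The libraries held 5.01 to 11.32 megacounts (median 7.65), and the 10 genes had 45 to 2421 counts each per library. Heads hold brain, eyes, fat body, muscle and antennae. The rhodopsin gene ninaE averaged 41874 CPM (TMM-normalised counts per megacount of library size), and neuronal markers such as nSyb (1674 CPM) and elav (144 CPM) were detected in every head. Akh, the hormone gene of the corpora cardiaca, averaged 0.21 CPM. In whole heads, fewer cells of a type and less RNA per cell cannot be told apart, and this holds for every level below. The library shocked High 3 stood apart: it had the lowest sample weight of the 37 (0.387) and the lowest mean log2 CPM of the 15 neuronal markers (8.41, against 8.58 to 9.22 in the other 36).

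The members fall into rough classes by role. Pdf (FBgn0023178, dm6 chromosome 3R, 26455462 to 26456141, 1 exon) encodes the output peptide of the ventral lateral clock neurons, which keeps clock cells in step and promotes morning activity. Dh31 (FBgn0032048, chromosome 2L, 8491868 to 8506845) encodes a calcitonin-like diuretic hormone that is made in some clock neurons and is known to promote waking late in the night. Dh44 (FBgn0012344, chromosome 3R, 9638182 to 9650706) encodes a relative of corticotropin-releasing factor made in the pars intercerebralis, and Lk (FBgn0028418, chromosome 3L, 14560139 to 14560764, 1 exon) encodes leucokinin. Dh44 and Lk act on fluid balance as well as on rest and activity.

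NPF (FBgn0027109, chromosome 3R, 16609220 to 16611325) and sNPF (FBgn0032840, chromosome 2L, 20027915 to 20056373) encode separate peptides known from feeding and reward. SIFa (FBgn0053527, on chromosome arm 2R) is expressed in a small group of pars intercerebralis cells whose fibres spread through the brain, and it is known from feeding, courtship and sleep. Tk (FBgn0037976, chromosome 3R, 11994175 to 12005473) encodes tachykinins, with known parts in olfaction and male aggression. Crz (FBgn0013767, chromosome 3R, 14314854 to 14315716) encodes corazonin, a stress and metabolic hormone, and Dsk (FBgn0000500, chromosome 3R, 4189692 to 4190260, 1 exon) encodes drosulfakinin, a relative of cholecystokinin linked to satiety and aggression.

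Positions are those of the Ensembl annotation in dm6 coordinates. For Lk, 582 of its 626 exonic bases lie opposite an exon of the antisense RNA CR44843, which had a median count of 109 (range 55 to 200) against 101 for Lk. For SIFa, 111 of its exonic bases lie opposite an exon of Start1 (median count 280 against 216). Whether the counting used strand is not stated in the labels. The counts of Lk and SIFa may therefore hold reads of these partners, or lack reads that both genes share. The exons of the other 8 members overlap no other annotated exon.

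Per kilobase of exon, Pdf and Dsk were the most abundant of the 10 RNAs in the head and Lk the least. Pdf averaged 246 ± 44.4 CPM per kb (SD, n = 37) and Dsk 226 ± 35.7 CPM per kb. Pdf lay above Dsk in 28 of 37 heads, and their ranges overlapped. Dsk was 2.26-fold above the next gene, Dh31, in mean level, and the ranges of Dsk and Dh31 (176 to 300 against 69 to 126 CPM per kb) did not touch.

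A middle group followed, in which neighbours differed by less than their spread. Dh31 averaged 100 ± 13.4 CPM per kb and NPF 99.7 ± 17.1 CPM per kb, and Dh31 was the higher in 18 of 37 heads. Crz (89.1 ± 12.7 CPM per kb) and sNPF (80.9 ± 11.1 CPM per kb) came next, with Crz the higher in 25 heads and below NPF in 28. sNPF exceeded Tk in 36 of 37 heads, by 1.36-fold in mean level.

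Tk (59.4 ± 7.77 CPM per kb), Dh44 (54.5 ± 9.27 CPM per kb) and SIFa (52.7 ± 11.7 CPM per kb) formed the next step. Tk exceeded Dh44 in 27 heads and Dh44 exceeded SIFa in 20. Lk averaged 21.3 ± 4.58 CPM per kb and was below SIFa in all 37 heads, by 2.48-fold in mean level, although the ranges over all heads touched. The levels of Lk and SIFa carry the limit of their overlapping exons given above. Without the division by length the order differs: sNPF, with 2447 bases of exon, had the highest mean level (198 ± 27.3 CPM), and Pdf, with 680 bases, had 168 ± 30.2 CPM.

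**Figure D1:**
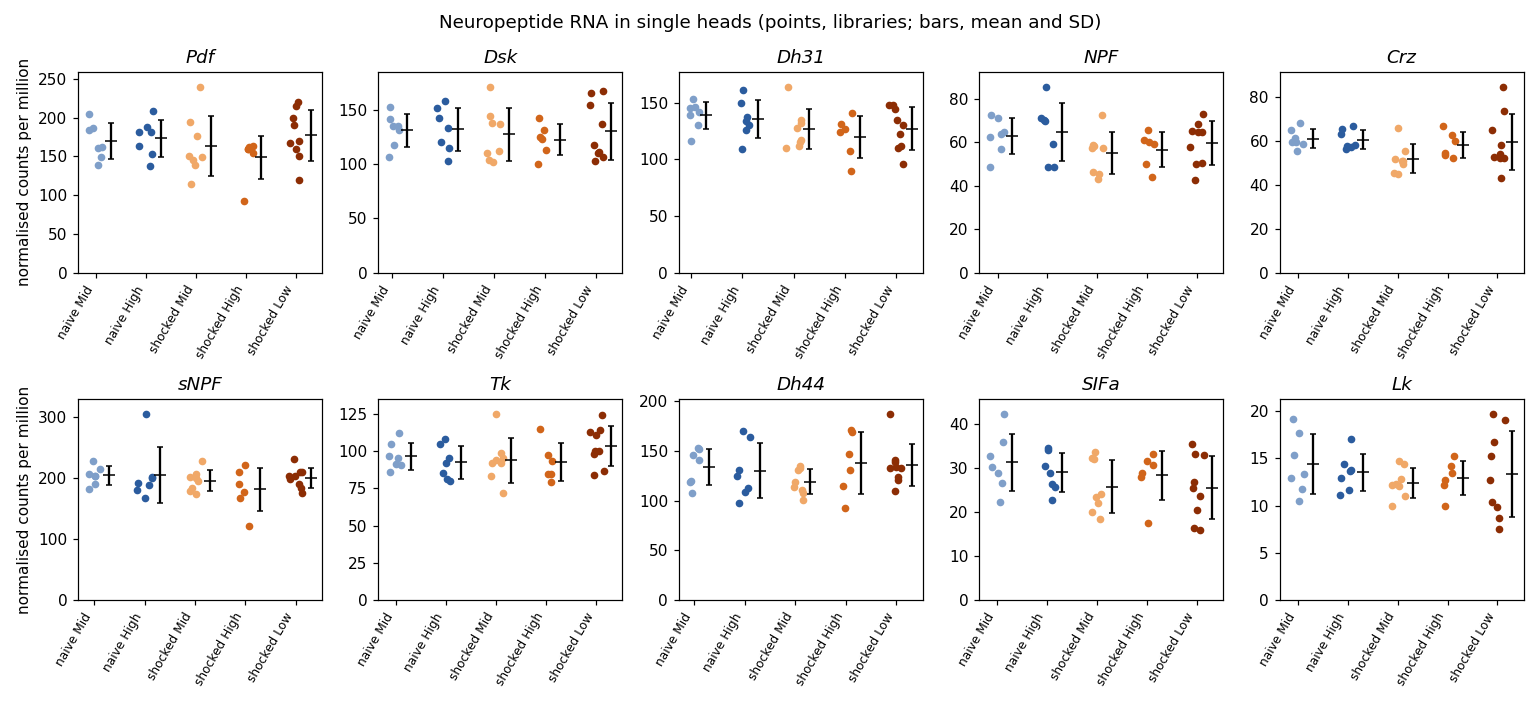
Normalised CPM (vertical axes, from 0) of each of the 10 neuropeptide genes in the 37 heads, grouped by naive or shocked and by class. Points are single heads, and bars are the mean and SD of a group. The groups overlap in every panel, and single heads such as sNPF at 305 in naive High or Pdf at 93.1 in shocked High lie outside the rest of their group.

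Each peptide RNA was more abundant per kilobase of exon than the RNA of its receptor or receptors in 37 of 37 heads, for all 13 peptide and receptor combinations. The receptors are G protein-coupled receptors named after their ligands. The ratio was smallest for Dh44 and its receptor gene Dh44-R2, with a median of 3.13 (1.90 to 4.69 over heads), and Dh44-R1 gave a median of 4.86. It was largest for Dsk and CCKLR-17D1, with a median of 43.5 (25.7 to 79.6), and CCKLR-17D3 gave 24.2.

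Pdf exceeded Pdfr by a median of 18.5 and NPF exceeded NPFR by 27.3. For sNPF and sNPF-R the median ratio was 10.6, for Crz and CrzR 10.4, and for SIFa and SIFaR 20.2. Tk stood at 6.66 over TkR99D and 20.1 over TkR86C. Dh31 stood at 6.21 over Dh31-R and Lk at 6.64 over Lkr. Among the receptor genes themselves, Dh44-R2 (17.6 ± 2.42 CPM per kb) and Dh31-R (16.1 ± 1.97 CPM per kb) had the highest mean levels, and SIFaR (2.63 ± 0.523 CPM per kb) and TkR86C (2.98 ± 0.598 CPM per kb) the lowest. Receptor genes had more exon (2230 to 5029 bases) than their peptide genes, so without the division by length the gaps are smaller. Lk averaged 13.3 CPM against 9.04 CPM for Lkr, with overlapping ranges, and SIFa 27.7 CPM against 13.2 CPM for SIFaR.

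**Figure D2:**
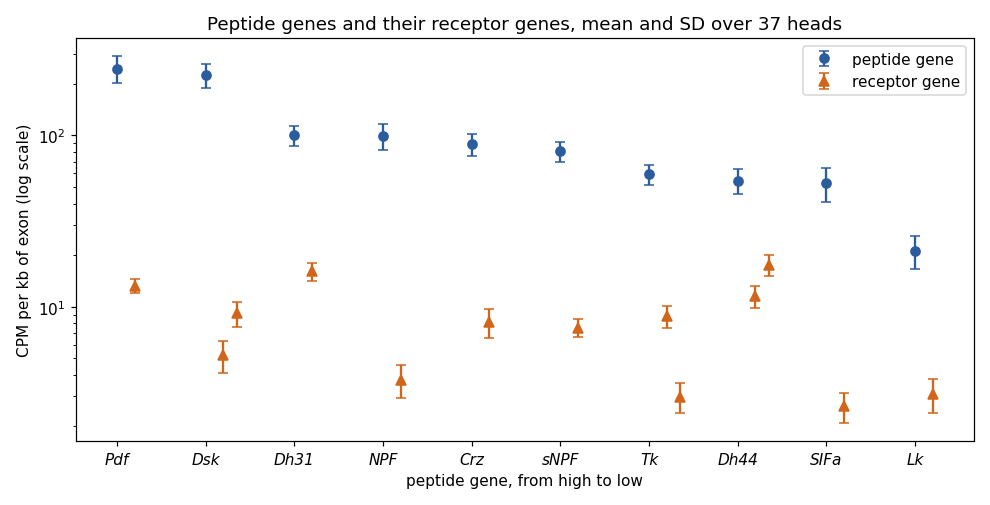
Mean level and SD over 37 heads of the 10 peptide genes (circles) and of their 13 receptor genes (triangles), in CPM per kb of exon on a log axis. Every circle stands above its triangles, and the gap is widest for Dsk with CCKLR-17D1 and narrowest for Dh44 with Dh44-R2.

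The study's first question, as the titles pose it, is whether heads of shocked flies differ from those of naive flies. With equal weight on High and Mid, 0 of the 10 neuropeptide genes passed in edgeR's quasi-likelihood test, fitted to all 5 groups and adjusted by Benjamini-Hochberg over all tested genes. The same rule called 0.00974% of all tested genes. At an unadjusted p under 0.05 there were 2 members, NPF and Dh31, against 6.3% of all tested genes. DESeq2 and limma also called 0 of 10.

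All 10 members had a lower estimate in shocked than in naive heads of the High and Mid classes. The median log2 fold change was -0.14, from -0.19 for NPF to -0.02 for Tk. Over all tested genes the median was 0.00, and 49.5% of genes were negative. Of 28 tested genes of other neuropeptides, 21 were negative, with a median of -0.09. The members tended to rise and fall together across heads (median r of 0.35 over pairs), so their 10 signs are not separate results. Every 95% interval of a member lay between -0.40 and 0.13, so for each gene differences beyond those bounds fell outside its interval. The 15 neuronal markers were negative in 15 of 15 cases as well, with a median of -0.06. With the neuronal marker score as a covariate the estimates were -0.18 for NPF and -0.13 for Dh31. Of the 7 tested glial markers, 7 had a higher estimate in shocked heads, with a median of 0.08 and 0 passing. Their mean log2 CPM was 6.52 ± 0.14 in shocked Mid against 6.28 ± 0.16 in naive Mid heads, and 6.48 ± 0.18 in shocked High against 6.36 ± 0.10 in naive High heads. Across heads, with group means subtracted, the r of a member with this glial score ran from -0.46 for SIFa to 0.00 for sNPF, and 0 of the 10 relations passed by permutation. Its part in the members' differences was not tested. Shocked Low heads (n = 9) are not part of this contrast. Their mean lay above both naive means, Mid and High, for Pdf (177 against 170 and 174 CPM) and Tk (103 against 96.6 and 92.7 CPM). It also did for Dh44 (136 against 134 and 130 CPM). For NPF, sNPF, Dh31, Crz, Lk, SIFa and Dsk it lay below both.

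NPF had 48.4, 63.6 and 72.5 CPM in naive Mid heads (lowest, median and highest) and 48.7, 69.9 and 85.5 CPM in naive High heads. In shocked heads it had 43.3, 57.4 and 72.7 CPM at Mid and 44.0, 59.7 and 65.5 CPM at High. The shocked medians were the lower ones, while the ranges of shocked and naive heads overlapped. The log2 fold change was -0.19 (SE 0.09, 95% interval -0.38 to -0.01, adjusted p = 0.773 in edgeR's quasi-likelihood test), with 12 of 14 shocked and 11 of 14 naive heads on the side of the difference.

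Dh31 had 116, 142 and 153 CPM in naive Mid heads and 109, 134 and 161 CPM in naive High heads. It had 110, 123 and 164 CPM in shocked Mid heads and 89.4, 126 and 141 CPM in shocked High heads. The naive medians again lay above the shocked ones, and the highest value of the 4 groups was a shocked Mid head. The log2 fold change was -0.15 (SE 0.07, adjusted p = 0.780 in edgeR's quasi-likelihood test), and 12 of 14 heads on each side lay on the side of the difference. Without shocked High 3, the head at 89.4 CPM, it was -0.12 with an adjusted p of 0.959 for Dh31.

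The High and Mid contrasts share their libraries with the pooled one, so they are not separate evidence. Within High, 0 of 10 members passed (0% of all tested genes), 0 had an unadjusted p under 0.05 (5.66% of all genes), and DESeq2 and limma called 0. Their log2 fold changes ran from -0.22 for Pdf to 0.08 for Dh44. Of the members, 9 of 10 were negative, against 51.7% of all genes and 21 of 28 other neuropeptide genes. Pdf averaged 149 ± 27.5 CPM in shocked High heads (n = 6) and 174 ± 23.9 CPM in naive High heads (n = 7). Its lowest head, at 93.1 CPM, was shocked, and the 95% interval of -0.51 to 0.07 covered 0.

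Within Mid, 0 of 10 members passed (0.0195% of all tested genes), and 1, Crz, had an unadjusted p under 0.05 (13.1% of all genes). DESeq2 and limma called 0. All 10 estimates were negative, with a median log2 fold change of -0.15, against 47.4% of all genes and 20 of 28 other neuropeptide genes. Here the 15 neuronal markers were all negative too, with a median of -0.15, and their mean log2 CPM was 8.80 ± 0.06 in shocked Mid heads (n = 8) and 8.94 ± 0.10 in naive Mid heads (n = 7).

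Crz had 55.3, 59.8 and 68.3 CPM in naive Mid heads and 45, 50.9 and 66.2 CPM in shocked Mid heads. Of the shocked heads, 7 of 8 lay below the naive mean and 1 reached the upper naive range. The log2 fold change was -0.23 (SE 0.10, 95% interval -0.43 to -0.03, adjusted p = 0.313 in edgeR's quasi-likelihood test). It was -0.26 with the neuronal marker score as a covariate, and the authors' deposited table gives -0.24 with a q-value of 0.0809 for Crz. SIFa had a larger estimate with a wider error, at 31.2 ± 6.50 CPM in naive Mid and 25.7 ± 6.08 CPM in shocked Mid heads (95% interval -0.62 to 0.05). Dh44 (134 ± 18.3 against 119 ± 12.7 CPM) and Lk (14.4 ± 3.15 against 12.4 ± 1.59 CPM) also had intervals that covered 0.

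The interaction term compares the shock difference at High with that at Mid. It passed for 0 of 10 members (0% of all tested genes) and had an unadjusted p under 0.05 for 0 (12.3% of all genes), and DESeq2 and limma called 0. Estimates ran from -0.17 for Pdf to 0.25 for Dh44 on the log2 scale. The intervals over the members reached from -0.56 to 0.74, so this contrast was the least precise of the 8. For NPF the estimate was 0.00 (95% interval -0.36 to 0.37).

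**Figure D3:**
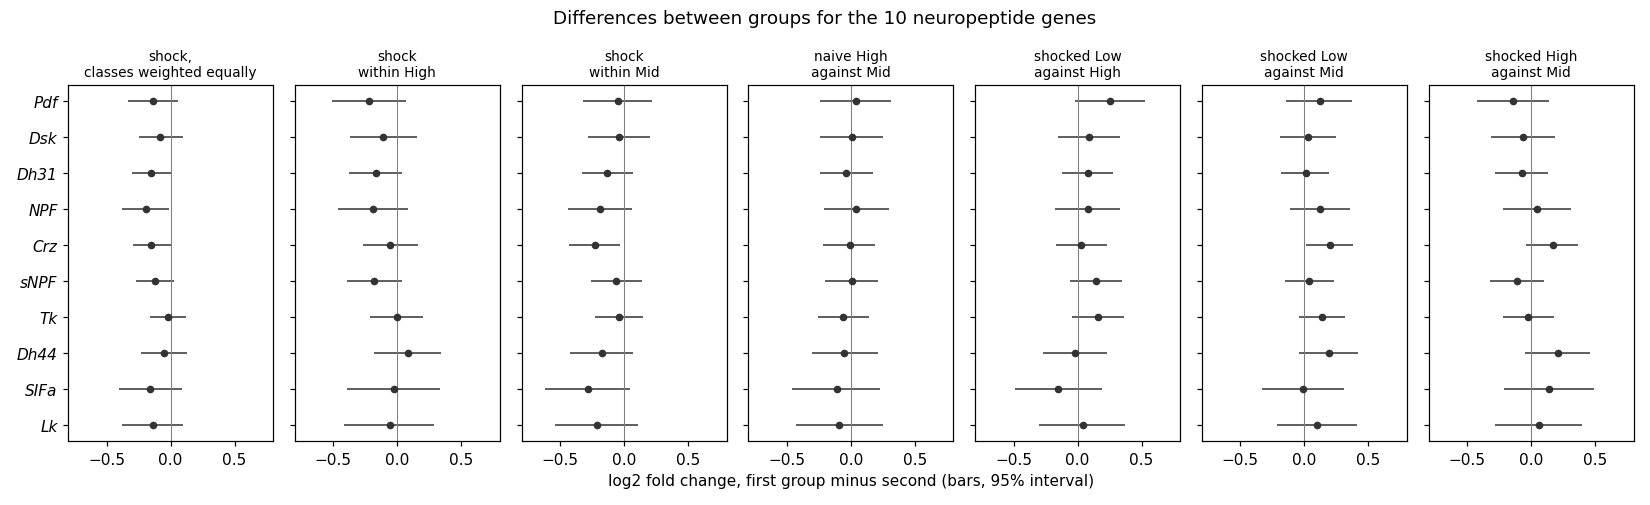
Log2 fold change (horizontal axes, first group minus second) of the 10 neuropeptide genes in 7 contrasts, with 95% intervals as bars. Points for the pooled and Mid shock contrasts all lie left of 0, and 4 of the 70 intervals exclude 0: NPF and Dh31 in the pooled contrast, and Crz within Mid and in shocked Low against Mid.

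The next question concerns the class of place preference. In naive flies, High against Mid called 0 of 10 members (0% of all tested genes), with 0 at an unadjusted p under 0.05 (3.09% of all genes) and 0 by DESeq2 or limma. The log2 fold changes ran only from -0.11 for SIFa to 0.04 for NPF. Crz averaged 60.7 ± 4.35 CPM in naive High and 61.2 ± 4.28 CPM in naive Mid heads, and sNPF averaged 205 ± 45.7 and 204 ± 15.3 CPM. The intervals of all 10 lay between -0.46 and 0.31.

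In shocked flies, Low against High called 0 of 10 (0% of all tested genes), with 0 at an unadjusted p under 0.05 (4.4% of all genes) and 0 by DESeq2 or limma. Estimates were positive for 8 of 10 members, while 46.5% of all tested genes and 8 of 28 other neuropeptide genes were negative. Pdf had the highest estimate, with 120, 170 and 220 CPM in Low heads and 93.1, 160 and 164 CPM in High heads. All 6 High heads lay below the Low mean, and the ranges overlapped. The 95% interval of Pdf was -0.02 to 0.53. Tk averaged 103 ± 13.1 CPM in Low heads (n = 9), the highest of its 5 group means, and 92.5 ± 12.9 CPM in High heads. SIFa went the other way, at 25.5 ± 7.20 and 28.2 ± 5.61 CPM.

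Low against Mid called 0 of 10 (0.0195% of all tested genes), with 1, Crz, at an unadjusted p under 0.05 (14% of all genes) and 0 by DESeq2 or limma. Estimates were positive for 9 of 10 members, with a median log2 fold change of 0.11. Over all tested genes the median was 0.00 and 49% were negative. As in the shock contrasts, the members covary, so their signs are not separate results. Crz had 43.0, 54.2 and 84.8 CPM in shocked Low heads, so this group held both the lowest and the highest Crz value of all 37 heads. Its log2 fold change was 0.20 (SE 0.09, 95% interval 0.01 to 0.38, adjusted p = 0.334 in edgeR's quasi-likelihood test). Without shocked Low 5, the head at 84.8 CPM, it was 0.12 for Crz. The comparison shares the shocked Mid heads with the shock contrast within Mid, where Crz also had its smallest p. Dh44, which was lowest in shocked Mid heads (119 ± 12.7 CPM), averaged 136 ± 21.4 CPM in Low heads (95% interval -0.04 to 0.42).

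High against Mid called 0 of 10 (0.0681% of all tested genes), with 0 at an unadjusted p under 0.05 (17.5% of all genes) and 0 by DESeq2 or limma. The members were split, with 5 lower and 5 higher. Dh44 had the highest estimate (137 ± 30.9 against 119 ± 12.7 CPM, 95% interval -0.05 to 0.46) and Pdf the lowest (149 ± 27.5 against 164 ± 39.0 CPM, -0.42 to 0.14). Antennal markers differed more between these groups than any member. Their mean log2 CPM was 4.48 ± 1.96 in shocked High and 6.39 ± 0.68 in shocked Mid heads. All 6 markers were lower in High, with a median log2 fold change of -1.33. All 6 had an unadjusted p under 0.05 in edgeR's quasi-likelihood test (17.5% of all genes), and 0 passed. The score of shocked High 2 was 0.81, and without it, a choice made after the data had been seen, the High mean was 5.22 ± 0.86 (n = 5) and the difference -1.17 in place of -1.91. Their part in the members' values was not tested.

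Over all 5 groups at once, 0 of 10 members passed (0.107% of all tested genes), and 0 had an unadjusted p under 0.05 (12.2% of all genes). The smallest p was that of Crz (adjusted p = 0.533 in edgeR's quasi-likelihood test) and the largest that of Dsk (adjusted p = 0.971), whose 5 group means lay between 122 and 132 CPM. The groups overlapped for all 10 members in each of the 7 contrasts of groups. Overlap was not counted over all tested genes, so it cannot be read as a trait of the members.

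Genes that receive, process or release these peptides, and the other neuropeptide genes, also gave counts of 0 in edgeR's quasi-likelihood test. Of 13 receptor genes, all tested, 0 passed in any of the 9 comparisons, by DESeq2 or limma either, and 0 to 2 per comparison had an unadjusted p under 0.05. The 2 fell in shock within Mid, where 13.1% of all tested genes did. Lkr, the leucokinin receptor gene, had the smallest p over the 5 groups (adjusted p = 0.457 in edgeR's quasi-likelihood test), with means of 10.1 ± 2.14 CPM in naive Mid and 7.59 ± 1.31 CPM in shocked Low heads. Dh31-R (54.7 ± 6.37 CPM in naive High, 48.9 ± 4.89 CPM in shocked Mid) and Dh44-R1 (29.4 ± 5.07 and 25.8 ± 3.01 CPM) followed, with adjusted p values of 0.562 and 0.584.

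Of 33 other neuropeptide genes, 28 were tested and 0 passed in any comparison, with 0 to 6 per comparison at an unadjusted p under 0.05. The 6 fell in the pooled shock contrast, where 6.3% of all tested genes did. DESeq2 called 1 of them, Nplp2, in shocked High against Mid and in shocked Low against Mid, and limma called it in the first of these. What share of all tested genes DESeq2 and limma called is not given here, so these calls have no background rate. Burs, Pburs, Eh, RYa and Akh did not pass the filter on low counts. Nplp2 spread widely, with means of 1290 ± 645 CPM in naive Mid, 1130 ± 760 CPM in naive High, 699 ± 376 CPM in shocked High, 1880 ± 956 CPM in shocked Mid and 720 ± 416 CPM in shocked Low heads (adjusted p = 0.291 in edgeR's quasi-likelihood test). CCHa2, a fat body and gut peptide that acts on insulin-producing cells, had its highest mean in shocked Mid as well (159 ± 81.6 CPM) and its lowest in shocked High (79.6 ± 38.7 CPM, adjusted p = 0.390). Proctolin (Proc) ran from 78.3 ± 13.5 CPM in naive Mid to 62.9 ± 6.95 CPM in shocked Low heads (adjusted p = 0.422).

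A fat body score, averaging log2 CPM over 6 tested markers, had its highest group mean in shocked Mid heads (7.55 ± 0.32) and its lowest in shocked High heads (6.52 ± 0.54). The markers were split, with 3 of 6 lower in shocked High against Mid, of which 1 passed (0.0681% of all tested genes). In shocked Low against Mid 3 of 6 were lower too, and 0 passed. The part of fat body RNA in Nplp2 and CCHa2 was not tested. Of 11 genes for peptide processing and release, all tested, 0 passed, with 0 to 3 per comparison at an unadjusted p under 0.05. There were 3 in shock within Mid (13.1% of all tested genes) and 3 in the interaction (12.3%). DESeq2 called 1, Pal1, in shocked High against Mid and in shocked Low against Mid, and limma called it in the first of these. Again no share of all tested genes is given for these 2 tools. Pal1, an amidating enzyme of the last step of peptide maturation, had the smallest p (adjusted p = 0.249 in edgeR's quasi-likelihood test), with 98.5 ± 16.6 CPM in shocked Mid and 75.2 to 81.4 CPM as the means of the other 4 groups. IA-2, a dense-core vesicle protein (2110 ± 150 CPM in shocked Mid, 2440 ± 279 CPM in naive Mid), and the furin Fur2 (154 ± 7.82 and 167 ± 14.5 CPM) followed, with adjusted p values of 0.561 and 0.611.

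Single heads of 1 group spread by different amounts from gene to gene. The coefficient of variation within groups was lowest for Tk (13%), Dh31 (13.2%), Crz (13.7%) and sNPF (13.9%). It was 16.5% for Dsk, 17% for NPF, 17.2% for Dh44 and 18.1% for Pdf, and highest for SIFa (22.1%) and Lk (22.2%). Counting error alone would give 2.55% for sNPF, 2.77% for Pdf and 9.80% for Lk, the least counted member. On the log2 scale the SD within groups was 0.18 to 0.34, and the median over all tested genes was 0.25.

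Over all heads, the highest value was 2.67 times the lowest for SIFa, 2.62 for Lk, 2.58 for Pdf and 2.50 for sNPF, and 1.70 for Dsk. The head shocked High 3 had the lowest value of all 37 for sNPF (122 CPM), Dh44 (92.3 CPM) and Dh31 (89.4 CPM). The head shocked Mid 1 had the highest for Pdf (240 CPM), Dh31 (164 CPM) and Dsk (171 CPM). The mean log2 CPM over the 10 genes was lowest in shocked Low 6 (5.98) and highest in shocked Low 7, so both ends came from 1 group.

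Because each library is 1 head, the genes can be set against each other head by head, after the mean of each group is subtracted. Across the 37 heads, 44 of the 45 member pairs had a positive Pearson r, with a median r of 0.35. Pairs of all tested genes had a median of 0.00 and 49.6% positive values. In a two-sided permutation test within groups (100000 resamples, Benjamini-Hochberg over 45 pairs), 16 pairs passed, all positive. How often pairs of all tested genes pass this test was not computed, so the count of 16 has no background rate beside it. Every pair draws on the same 37 libraries and scaling factors, so the pairs are not independent of each other. Median r was 0.08 among the 13 receptor genes, 0.11 among the 28 other neuropeptide genes, 0.01 among the 11 processing and release genes, and 0.72 among the 15 neuronal markers.

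NPF and SIFa had the highest correlation: r was 0.72 (p = 1e-05 by permutation, the smallest the resamples can give, adjusted p = 0.00045) and Spearman's rho 0.70. Without the 2 heads farthest from the median of NPF, r was 0.69. It was positive within each group, at 0.75 in naive Mid, 0.83 in naive High, 0.74 in shocked Mid, 0.92 in shocked Low and 0.28 in the 6 shocked High heads.

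Dh31 was the member with the most partners, with 6 of its 9 pairs passing. With SIFa its r was 0.65 (permutation p = 9e-05, adjusted p = 0.00202, rho 0.63) and 0.53 without the 2 farthest heads, and 0.59 without shocked High 3. Within groups that r ran from -0.22 in naive Mid to 0.92 in shocked Low heads. With Pdf, r was 0.64 (permutation p = 0.0002, adjusted p = 0.00225, rho 0.65), 0.59 without the 2 farthest heads and positive within each group (0.31 in shocked High, 0.71 to 0.87 in the others). Without shocked High 3 the Pdf and Dh31 value was 0.75.

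The remaining pairs that passed had r from 0.41 to 0.61. sNPF passed with Dh31 (0.61), SIFa (0.53) and NPF (0.51), and Dsk with Dh31 (0.52), Crz (0.51) and SIFa (0.44). Tk passed with Dh44 (0.42) and Lk (0.41). At the low end stood NPF with Dh44 (0.11), Pdf with Crz (0.02) and Pdf with Dh44 (-0.03), with adjusted permutation p values of 0.588, 0.902 and 0.869. For Pdf with Crz, r within groups ran from -0.75 in shocked High to 0.74 in naive High heads.

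With the neuronal marker score of each head regressed out, the median r was 0.38 and 20 pairs passed, among them all 16 of the first count. The number that passed was 20 without shocked High 3, 10 without shocked Low 9 and 22 without shocked High 4, and between 10 and 22 over all 37 fits that left out 1 head.

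**Figure D4:**
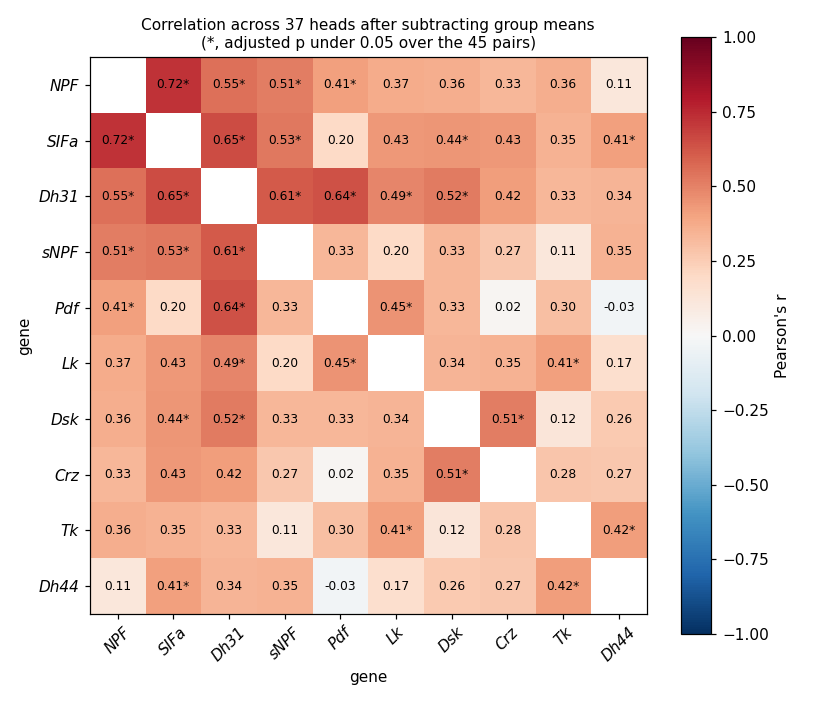
Pearson's r across 37 heads for each pair of the 10 neuropeptide genes, after group means of log2 CPM were subtracted. Stars mark the 16 pairs with an adjusted p under 0.05 over the 45 pairs. Red shades (positive r) fill all cells except Pdf with Dh44 at -0.03, and the strongest cell is NPF with SIFa at 0.72.

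The tested genes most like each member across the 37 heads were found by the same r, given as a description with no test, since all genes share libraries, depth and scaling. Dh31 was most like VhaM9.7-a, a subunit gene of the vacuolar proton pump (r = 0.81), the insulin-like peptide gene Ilp2 (0.80) and the allatostatin gene AstC (0.79). Pdf was most like Dh31 (0.64), Fie (0.64) and Ilp2 (0.63), and without shocked High 3 these were 0.75, 0.73 and 0.66. SIFa was most like the myoinhibitory peptide gene Mip (0.72), NPF (0.72) and the orcokinin gene (0.68).

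NPF was most like SIFa (0.72), por, an acyltransferase needed for Wnt secretion (0.66), and CG45062 (0.66), a gene with a mean log2 CPM of only -0.09. sNPF had the highest r of all, with norpA, the phospholipase C of phototransduction (0.82), Rab14 (0.81) and miple (0.79). Without shocked High 3 these were 0.74, 0.75 and 0.70.

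Tk was most like CG3257 (0.71), CG31550 (0.69) and the cell surface gene dpr5 (0.68). Dh44 was most like HLH3B (0.66, at a mean log2 CPM of 0.98), CG4577 (0.65) and Hsp67Ba (0.62), and without shocked High 3 these were 0.63, 0.58 and 0.70. Dsk was most like CG7911 (0.74), CG9836 (0.73) and veli, a synaptic scaffold gene (0.70). Lk and Pdf had the lowest leading values. Crz was most like Cdk9 (0.67), CG30172 (0.64) and CG15896 (0.61), and Lk was most like mRpL23 (0.63), CG9164 (0.60) and the relaxin-like receptor gene Lgr3 (0.60).

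Each member was also set against 7 marker scores (neuronal, glial, photoreceptor, fat body, muscle, antennal and clock genes) and log2 total count, 80 relations chosen after the data had been seen. Of these, 2 passed in a two-sided permutation test within groups after Benjamini-Hochberg adjustment over the 80. Relations of all other tested genes with these scores were not computed, so neither of the 2 can be called particular to its gene. No member had an r beyond 0.14 in size with total count. The next smallest adjusted p values were 0.0725 for Tk with the fat body score (r -0.46), 0.0828 for SIFa with the photoreceptor score (r 0.52) and 0.102 for sNPF with the neuronal score (r 0.60, and 0.36 without the 2 farthest heads), all by permutation.

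Dsk had lower levels in heads with a higher clock gene score, the mean log2 CPM of per, tim, Clk, cyc, vri, Pdp1, cry and cwo. Pearson's r was -0.57 (permutation p = 0.00011, adjusted p = 0.0088) and Spearman's rho -0.62 (permutation p = 7e-05, adjusted p = 0.0056). Without the 2 farthest heads r was -0.64. It was negative within each of the 5 groups, from -0.76 in naive Mid to -0.54 in naive High heads. Of the 8 genes, Clk, a transcription factor of the clock, had the largest single value (-0.57), followed by tim (-0.43), vri (-0.40) and cwo (-0.39), while per stood at 0.02. With the neuronal score, r of Dsk was -0.25 and rho -0.41 (adjusted p = 0.415 and 0.195 by permutation). How the clock score relates to the neuronal score was not tested.

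Dh44 had higher levels in heads with a higher muscle score, the mean log2 CPM of 10 contractile protein genes. Pearson's r was 0.51 (permutation p = 0.00097, adjusted p = 0.0388), rho was 0.54 and r was 0.57 without the 2 farthest heads. Within groups it was 0.34 to 0.86 in 4 groups and -0.09 in shocked Mid heads. Without shocked High 3, r of Dh44 was 0.48. The call was lost in 13 of the 37 fits that left out 1 head, where r was 0.45 to 0.51 with an adjusted p of up to 0.0976.

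**Figure D5:**
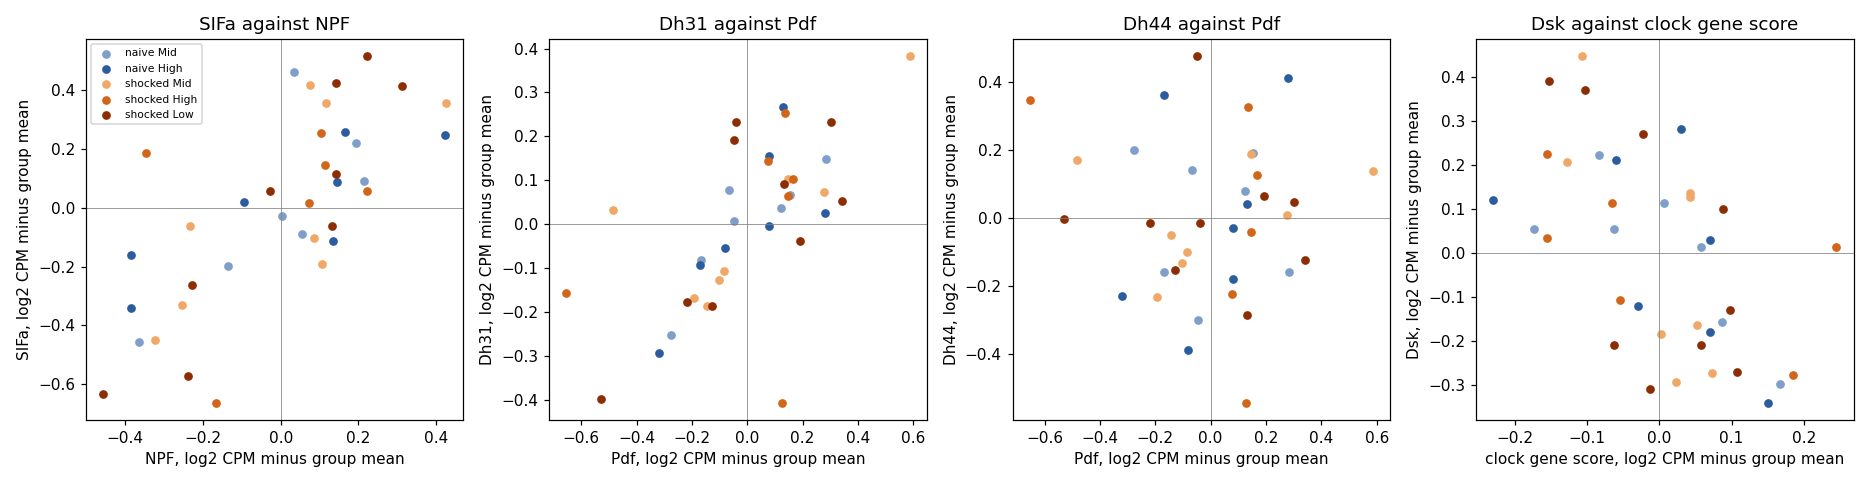
Log2 CPM minus the group mean in 37 heads (points, coloured by group), for SIFa against NPF, Dh31 against Pdf, Dh44 against Pdf and Dsk against the clock gene score. The first 2 clouds slope up (r of 0.72 and 0.64), the third shows no slope (-0.03) and the fourth slopes down (-0.57).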

How the data were processed

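Per the series design text, the authors trimmed reads with Trimmomatic, mapped them to dm6 with STAR, dropped non-primary alignments and those with a mapping quality below 8, and counted exonic reads with HTSeq-count for DESeq2. Tool versions and any use of strand are not stated in these sources. The deposited table holds raw counts per gene. The authors' deposited comparison table holds log2 fold changes, second group minus first, and adjusted p-values (q-values). Counts were matched to 37 of 39 labelled samples. The other 2, shocked High, were not analysed here, nor were 2 columns whose names match no label. The labels' extraction text also names nuclear RNA, although the design text describes total RNA of heads. Each library came from a separate fly. Library pairs of 1 group differed by a chi-square of 7.94 to 97.01 per gene, above sampling noise.

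edgeR's quasi-likelihood method was run with the 5 groups as its only term on the genes kept by filterByExpr (10272 of 17559), with TMM scaling and Benjamini-Hochberg adjustment at 0.05; it gave 8 contrasts and a test over all groups. CPM values are TMM-scaled; log2 CPM used a prior count of 2. Lengths are merged exons of Ensembl release 115, in dm6 coordinates. Heads on the side of a difference are those beyond the mean of the other group in its direction. Members were named with their statistics where the unadjusted p was under 0.05; of each pathway list the 3 genes with the smallest p over all groups, and of pairs the 3 highest and 3 lowest, were named. The members and the 11 gene lists were chosen with earlier results of these data known.

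Alternatives were DESeq2, RLE scaling, no filter, limma voom with quality weights, only the groups compared, a replicate block, the neuronal score as a covariate and each library left out. The fit was tested on simulated data. Deviations from group means of same-numbered libraries of different groups had a median r of 0.018 (67 pairs, range -0.331 to 0.297). For libraries of different groups and numbers it was -0.001 (range -0.418 to 0.376). The numbers were those of the titles, which differ from the library names for some samples. Pairing by library name was not tested. Fits used edgeR 4.0.16, DESeq2 1.42.0 and limma 3.58.1 in R 4.3.3. Correlations and figures used Python 3.11.15 with scipy 1.17.1, numpy 2.4.6, matplotlib 3.10.9 and pandas 2.3.3.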

Additional observations from a re-analysis of the deposited data

Results flagged for a closer look

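Of 50 sets of heads (10 genes in 5 groups), 5 held a head that stood apart from the rest of its group by Dixon's criterion; chance alone flags about 1 in 20 such sets. Pdf was 93.1 CPM in shocked High 4, while the other 5 heads of that group lay between 154 and 164 CPM. sNPF was 305 CPM in naive High 4, and the next head had 202 CPM. Dh44 was 187 CPM in shocked Low 5, and the next head had 141 CPM. Dh31 was 164 CPM in shocked Mid 1, the head that also had the highest Pdf and Dsk, and the next had 135 CPM. SIFa was 17.4 CPM in shocked High 3, the head with the lowest neuronal marker score, and the next had 27.9 CPM.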

How the results depend on the processing

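In each of the 9 comparisons, 0 of 10 members were called under DESeq2, RLE scaling, no filter on low counts, limma, only the groups compared (where this applies), a replicate block and the neuronal covariate, and in all 37 fits that left out 1 library. The smallest adjusted p of a member in any of these was 0.127. With the replicate block 0 members were called in every comparison, while in shocked High against Mid it called the pathway genes Nplp2, CCHa2 and Pal1. What share of all tested genes the block fit called is not given here. The log2 fold changes kept their sign: NPF with shock -0.23 to -0.16, Dh31 with shock -0.18 to -0.12, Crz with shock within Mid -0.29 to -0.21 and Crz in shocked Low against Mid 0.12 to 0.25 over all settings. The number of member pairs that passed was 16 to 20 with Spearman's rho, a prior count of 0.5, RLE scaling or the neuronal score regressed out, and 10 to 22 with 1 library left out. Only the 3 highest and 3 lowest pairs were followed by sign over these settings, and 2 of them, near zero, changed sign. Pdf with Crz ran from -0.05 to 0.14 with 1 library left out. Pdf with Dh44 ran from -0.11 to 0.11, and was 0.11 with Spearman's rho. Outside these pairs, Tk with Dsk had an r of 0.12, and -0.03 without the 2 heads farthest from the median of Tk. The cause was not tested. The number of marker and depth relations that passed was 2 to 3 over the other settings, and 1 to 6 with 1 library left out. It was 6 without naive High 7, 4 without shocked Low 1 or shocked Low 3, and 1 without naive Mid 2, 3, 6 or 7, naive High 5 or 6, shocked High 2 or 3, shocked Mid 2 or 3, or shocked Low 5 or 9. The r of Dsk with the clock score was -0.63 to -0.54 and kept its call in every such fit. Depth limits Lk most, with 45 to 196 counts per library.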
